A study of Mus musculus with 2 samples.

Results

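The genes described here are 10 genes of the YAP and TEAD pathway, picked by name from the 19829 genes of the deposited table: the coactivators *Yap1* and *Wwtr1*, the DNA-binding factor *Tead1*, the kinase *Lats2*, the scaffolds *Ajuba* and *Amotl2*, and the target genes *Ctgf*, *Cyr61*, *Ankrd1* and *Axl*. *Ctgf* and *Cyr61* are listed in the table as *Ccn2* and *Ccn1*. All 10 genes were found, and all 10 were among the 14997 genes whose normalized value reached 1 in either library.

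Whole-kidney mRNA was sequenced in 2 libraries, 1 per group, WT+AKI and TG+AKI, where AKI is acute kidney injury. Both came from male C57BL/6 mice. TG mice overexpressed *Inmt*, which encodes indolethylamine N-methyltransferase, in proximal tubules, and WT mice were their littermates. By the study's methods, mice of both genotypes were injected intraperitoneally each day with voclosporin, a calcineurin inhibitor, at 30 mg/kg between 8 and 10 weeks of age, and had bilateral renal ischemia of 30 min followed by reperfusion at 14 weeks. The methods place kidney collection at 48 h of reperfusion and a legend places it at 24 h. The treatment field of both samples states none, and the title of the TG sample also speaks of a conditional knockout. Whether a library held 1 animal or a pool was not stated. The comparison addressed how transcripts of the injured kidney differed between the genotypes.

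The libraries held 38542764 reads for WT+AKI against 36427421 for TG+AKI. Values are reads per 1000000 of the scaled library, so that 1 read was worth 0.0236 (WT+AKI) or 0.0302 (TG+AKI). *Inmt* had a value of 10.45 for WT+AKI against 402.8 for TG+AKI, in the direction of the labels. With 1 library per group no difference has a replicate check, no p-value is given, and each ratio carries a 95% Clopper-Pearson interval that covers counting error only. A gene was called when log2(value + 0.1) differed by 2-fold or more. By this rule 10.5% of the tested genes (1578) were lower in TG+AKI and 7.02% (1053) were higher, so that 40.0% of called genes were higher. That share depended on the scaling: it was 22.5% (666 higher and 2295 lower) when both columns were set to the same total and 30.3% when the median ratio of genes that reached 100 in both libraries was set to 1, which moved the median of all genes by -0.28 and -0.15 on the log2 scale.

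YAP, encoded by *Yap1*, and TAZ, encoded by *Wwtr1*, are transcriptional coactivators that do not bind DNA themselves and reach their target genes through TEAD factors. The Hippo kinases, with LATS1 and LATS2 as the last step, phosphorylate YAP and TAZ and keep them in the cytoplasm, and scaffolds such as AJUBA and the angiomotins act on that step. In the kidney, YAP and TAZ are known for roles in tubule repair and in fibrosis, and their activity is set largely by phosphorylation and location, which mRNA levels do not show.

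TEAD factors bind a core of 6 bases, GGAATG, or CATTCC when read on the opposite strand. The sites shown here carry that core in capitals with 10 bases on each side, read 5′ to 3′ in the direction of the gene, because each of the 8 genes of the set with a promoter entry held at least 1. Sequences and start sites are from RefSeq on GRCm38.p6, and the windows searched run from 250 bases before to 50 bases after the annotated start.
Cyr61 (chr3:145650073-145650098, minus strand, core at -103): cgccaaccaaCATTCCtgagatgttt
Ankrd1 (chr19:36120039-36120064, minus strand, core at -210): cactgccaaaGGAATGaccctctcac
Ankrd1 (chr19:36119952-36119977, minus strand, core at -123): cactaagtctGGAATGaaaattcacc
Axl (chr7:25788951-25788976, minus strand, core at -233): aaattctacaGGAATGtttaccagac
Amotl2 (chr9:102717729-102717754, plus strand, core at -65): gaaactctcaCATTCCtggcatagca
Ajuba (chr14:54577810-54577835, minus strand, core at -164): cccctccgcgCATTCCaactgtaaac
Yap1 (chr9:8004722-8004747, minus strand, core at -141): ggagtctgcaGGAATGtagcgacgcg
Wwtr1 (chr3:57576031-57576056, minus strand, core at -136): taaactcaaaGGAATGcagataggcg
Lats2 (chr14:57746104-57746129, minus strand, core at 5): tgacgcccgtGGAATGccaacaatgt

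The core was found in 9 of 10 windows of these genes, which is at least 1 window of each of the 8 genes with an entry. *Ctgf* and *Tead1* had no entry. Searched on both strands in the same way, 14.7% of all 32851 windows and 12.6% of the 14598 windows of tested genes held the core. *Ajuba* had a further core at -186, and the site of *Wwtr1* lay at -170 from a nearby alternative start. The window at the other start of *Lats2* held none. The starts used for *Amotl2*, *Axl*, *Yap1* and *Lats2* lie inside the gene spans given with their levels below. The sites shown for *Amotl2* and *Lats2* therefore fall within those spans. The core of the AP-1 factors, TGANTCA, was found in 0 of 10 windows, against 7.81% of all windows, a share that does not set so few windows apart. A match is a string of letters and not a measured binding site, and several of these genes are known as YAP targets, so the windows are no random draw. Of the windows of the other published YAP target genes described below, 2 of 10 held the core.

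**Figure D1:**
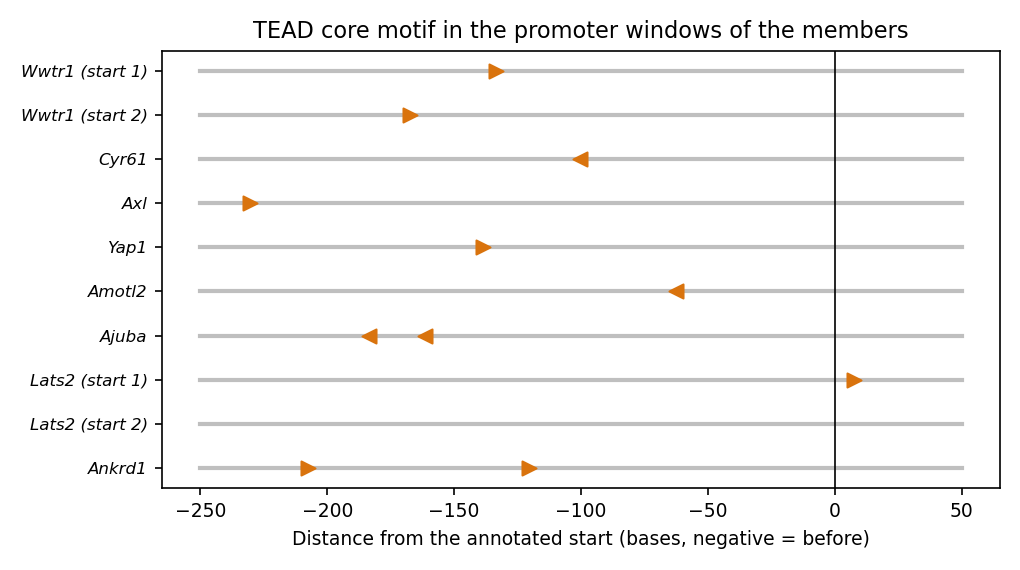
Position of the TEAD core in the promoter windows of 8 genes, in bases from the annotated start (vertical line), with each window as a grey bar and each core as a triangle that points right for GGAATG and left for CATTCC. Cores lay between 233 bases before the start (*Axl*) and 5 bases after it (*Lats2*), and 1 of the 10 windows held none.

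All 10 genes were lower in TG+AKI than in WT+AKI. The differences ran from 1.10-fold for *Tead1* to 9.68-fold for *Ankrd1*. *Cyr61*, *Ankrd1* and *Axl*, 3 of 10, were at least 2-fold lower, where 10.5% of tested genes were, and 0 were at least 2-fold higher, where 7.02% of tested genes were. The ratio was below 1 for 10 of 10, against 51.3% of tested genes, and the counting interval lay wholly below 1 for 10 of 10, against 38.7%. The median log2 fold change was -0.73 over the 10 genes and -0.02 over all tested genes. In a whole kidney, fewer cells of a type and less RNA per cell cannot be told apart.

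**Figure D2:**
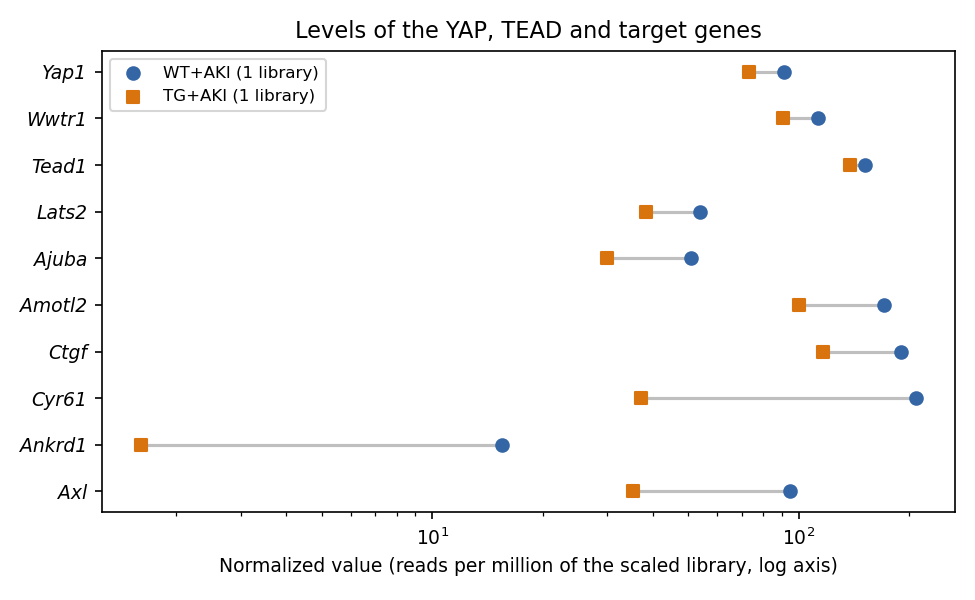
Normalized value (reads per 1000000 of the scaled library, log axis) of the 10 genes in WT+AKI (blue circles) and TG+AKI (orange squares), 1 library each and no error shown. Every square lies to the left of its circle, and the gap is widest for *Ankrd1* (15.5 and 1.60) and narrowest for *Tead1* (151.7 and 138.2).

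The coactivators differed little. *Yap1* (gene ID 22601, chr9:7931999-8004638, minus strand) was at 90.97 in WT+AKI against 73.02 in TG+AKI, from 3857 and 2418 reads. It was 1.25-fold lower in TG+AKI (interval 1.18 to 1.31). *Wwtr1* (gene ID 97064, chr3:57455644-57575910, minus strand) was at 112.9 and 90.65, and was also 1.25-fold lower (1.19 to 1.304). The 2 coactivators therefore kept their proportion: there were 1.24 *Wwtr1* reads per *Yap1* read in either library, and the ratio of these ratios, which no library scaling can move, was 1.0 (0.934 to 1.07). Of the tested genes, 30.3% had a larger fall than either. The counting of *Yap1* may include reads of *Gm20416*, which overlaps it on the opposite strand and was not analysed here, since whether strand was used in counting was not stated.

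*Tead1* (gene ID 21676, chr7:112679356-112906784, plus strand), the DNA-binding partner, differed least, at 151.7 and 138.2 and 1.10-fold lower (1.06 to 1.14). *Yap1* was lower relative to *Tead1* within the library as well, with a ratio of ratios of 0.881 (0.826 to 0.939). Of the tested genes, 41.6% had a larger fall than *Tead1*.

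The Hippo kinase and the scaffolds lay between the coactivators and the most reduced targets, each within 2-fold. *Lats2* (gene ID 50523, chr14:57689662-57746212, minus strand) was at 53.78 in WT+AKI against 38.41 in TG+AKI, 1.40-fold lower (1.307 to 1.501). *Lats2* is itself known as a YAP target that feeds back on YAP. Its value is uncertain, because 56.1% of the 100-base words of its longest transcript are shared with *Gm49361*, an overlapping gene on the same strand that was not analysed here. *Lats1*, its paralog in the kinase step, was at 61.56 and 55.38, and *Lats2* reads per *Lats1* read were lower in TG+AKI by a ratio of 0.794 (0.724 to 0.870).

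*Ajuba* (gene ID 16475, chr14:54567469-54577661, minus strand) encodes a LIM protein that binds LATS kinases and restrains them. It was at 50.92 in WT+AKI against 30.08 in TG+AKI, 1.69-fold lower (1.57 to 1.83). *Amotl2* (gene ID 56332, chr9:102717091-102733418, plus strand) encodes an angiomotin that retains YAP outside the nucleus and is also a YAP target. It was at 170.9 and 100, 1.71-fold lower (1.64 to 1.78). Both were lower relative to the paralogs compared. *Ajuba* against *Limd1* gave a ratio of ratios of 0.631 (0.576 to 0.691). *Amotl2* gave 0.646 (0.602 to 0.693) against *Amot* and 0.721 (0.659 to 0.789) against *Amotl1*.

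The 4 further target genes were lower to very different degrees. *Ctgf* (gene ID 14219, chr10:24595442-24598683, plus strand) encodes a secreted matricellular protein of the CCN family known for its role in fibrosis. It was at 190.3 in WT+AKI (8068 reads) against 116.7 in TG+AKI (3864 reads), 1.63-fold lower (1.57 to 1.70), and was not called. *Gm15270*, on the opposite strand at this locus, had 4 and 6 reads, too few to move the value of *Ctgf*.

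*Cyr61* (gene ID 16007, chr3:145646971-145649985, minus strand), the closest relative of *Ctgf* here and another secreted CCN protein, was at 209.0 in WT+AKI (8862 reads) against 37.02 in TG+AKI (1226 reads). It was 5.65-fold lower (5.318 to 5.998), and 1.93% of tested genes had a larger fall. The 2 CCN genes thus parted: *Cyr61* had 1.10 reads per *Ctgf* read in WT+AKI against 0.317 in TG+AKI, a 3.46-fold lower proportion (3.22 to 3.72).

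*Ankrd1* (gene ID 107765, chr19:36111965-36119844, minus strand) encodes a nuclear and sarcomeric ankyrin repeat protein widely used as a readout of YAP activity. It was at 15.5 in WT+AKI (657 reads) against 1.60 in TG+AKI (53 reads). The difference of 9.68-fold was the largest among these 10 genes, and its interval (7.31 to 13.1) was the widest, since 53 reads carry it on the low side. It lies above that of *Cyr61*, and *Ankrd1* reads per *Cyr61* read were lower in TG+AKI by a ratio of 0.583 (0.429 to 0.778).

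*Axl* (gene ID 26362, chr7:25756500-25788924, minus strand) encodes a receptor tyrosine kinase of the TAM family that binds GAS6. It was at 94.51 in WT+AKI (4007 reads) against 35.30 in TG+AKI (1169 reads), 2.68-fold lower (2.51 to 2.86), and 6.30% of tested genes had a larger fall. *Mertk*, the TAM receptor best known for clearance of dead cells, was at 59.06 and 59.79. *Tyro3*, the other TAM receptor gene, was lower as well, at 3.61 in WT+AKI (153 reads) against 2.33 in TG+AKI (77 reads). It was 1.55-fold lower (1.17 to 2.07) and was not called. *Axl* reads per *Mertk* read were 2.71-fold lower in TG+AKI (2.48 to 2.96).

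**Figure D3:**
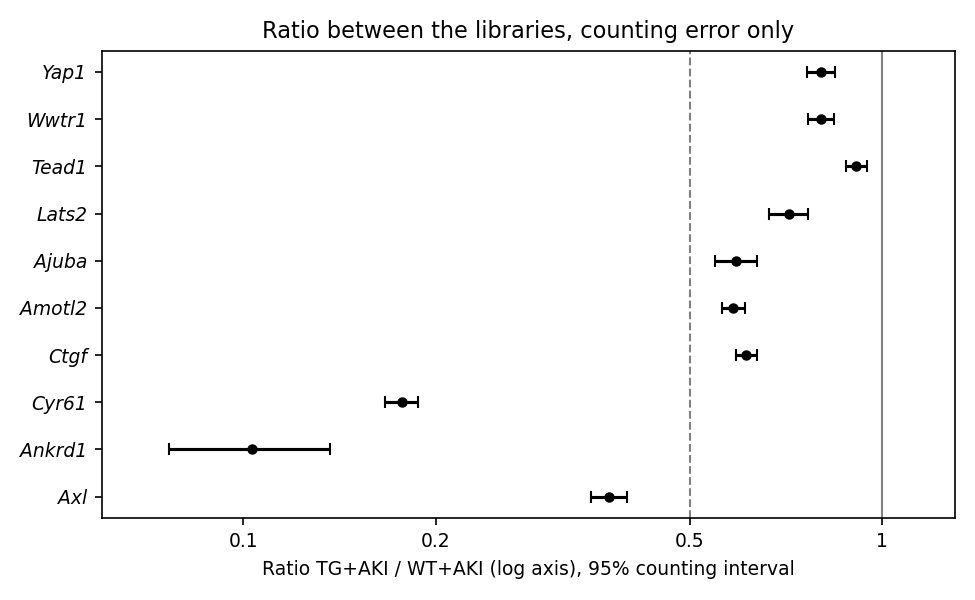
Ratio of TG+AKI to WT+AKI for each of the 10 genes (log axis), with the 95% counting interval as a bar, a solid line at a ratio of 1 and a dashed line at a 2-fold lower level. *Cyr61*, *Ankrd1* and *Axl* lie wholly beyond the dashed line, and the other 7 genes lie between the lines; the bars hold no variation between animals.

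Set against their coactivator within each library, the secreted targets were also lower. *Cyr61* had 2.30 reads per *Yap1* read in WT+AKI against 0.507 in TG+AKI, a ratio of ratios of 0.221 (0.204 to 0.239). For *Ctgf* the ratio of ratios was 0.764 (0.717 to 0.815). A difference in *Yap1* transcript of 1.25-fold stood beside differences in the 4 further targets of 1.63-fold to 9.68-fold. The 15 other published targets described below leave out the genes of this set. Their median log2 fold change was -0.31, and -0.37 with a filter of 10, beside -0.32 for *Yap1*. *Lats2*, also known as a target, was 1.40-fold lower.

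**Figure D4:**
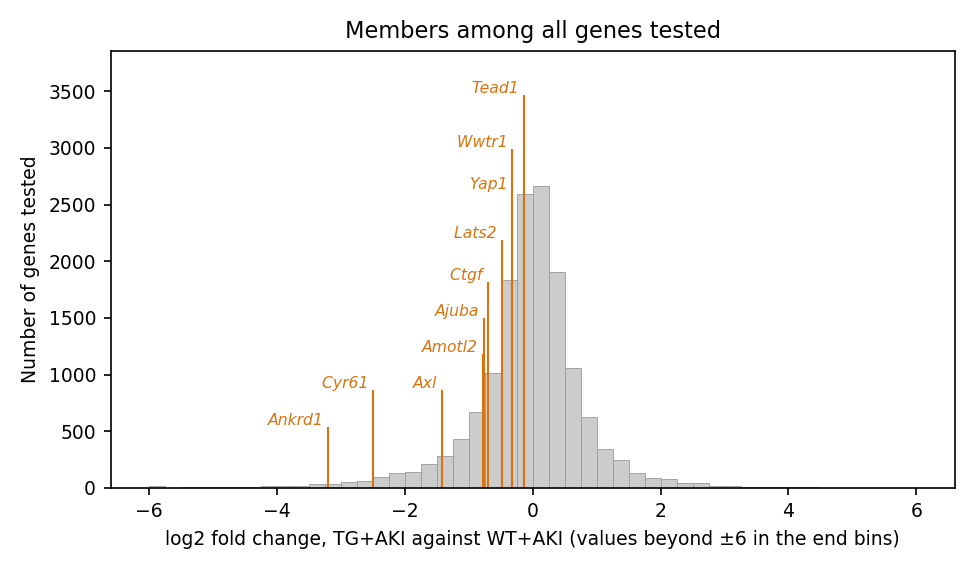
Number of tested genes in each bin of log2 fold change of TG+AKI against WT+AKI (grey bars, 14997 genes), with a line at the value of each of the 10 genes; the heights of the lines only separate the names. *Ankrd1* (-3.20), *Cyr61* (-2.49) and *Axl* (-1.42) lie in the left tail, and *Tead1* (-0.13) lies near the median of all genes (-0.02).

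Levels were compared between genes per kilobase of the longest transcript. In WT+AKI, *Cyr61* had the highest level per kilobase at 103.5, followed by *Ctgf* at 76.4, *Amotl2* at 38.6, *Wwtr1* at 24.04, *Axl* at 22.2 and *Yap1* at 17.2. *Tead1* at 15.2 and *Ajuba* at 14.99 had overlapping counting intervals, and *Lats2* at 10.4 and *Ankrd1* at 7.67 per kilobase came last. In TG+AKI the order changed at the top: *Ctgf* was highest at 46.9 per kilobase, ahead of *Amotl2* at 22.6, and *Cyr61* at 18.3 and *Wwtr1* at 19.3 had overlapping intervals. *Tead1* (13.9) and *Yap1* (13.8) could not be ordered in TG+AKI, nor could *Ajuba* (8.85) and *Axl* (8.28), or *Axl* and *Lats2* (7.40), and *Ankrd1* was last at 0.792. These intervals cover counting error only, and a transcript other than the longest would change the lengths.

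Genes around these 10 were taken from 7 lists of the pathway that leave the 10 out. Of 50 genes in the lists, 46 were in the table and 43 passed the filter. Of the 43, 6 (14%) were at least 2-fold lower in TG+AKI, against 10.5% of all tested genes, and 0 were at least 2-fold higher. The ratio was below 1 for 33 of the 43 (76.7%), against 51.3%.

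Of 13 Hippo kinases and scaffolds 0 were called, a count that at a background of 10.5% lower and 7.02% higher does not set so short a list apart. The ratio was below 1 for 9 of the 13, against 51.3% of tested genes, and their median log2 fold change was -0.15. The 2 with the highest values, *Wwc1* and *Wwc2*, which encode the scaffold KIBRA and its relative, were at 234.9 and 107.8 in WT+AKI against 256.2 and 115.8 in TG+AKI. Among 4 angiomotin and Ajuba family genes the median was -0.16 and 0 were called, a count that the same background does not set apart. *Limd1* was at 82.77 and 77.48 and *Amot* at 68.45 and 61.99.

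The other TEAD factors and their VGLL cofactors were all lower, 5 of 5 tested, where 51.3% of all tested genes were. Their median was -0.55, and it was -0.42 with a pseudocount of 1 and -0.41 with a filter of 10. At least 2-fold lower was 1 of the 5, where 10.5% of tested genes were. *Tead4* was the 1 called gene, at 3.30 in WT+AKI (140 reads) against 1.33 in TG+AKI (44 reads), 2.49-fold lower (1.76 to 3.57). Its level is low beside that of *Tead1*. *Vgll1* and *Vgll2* were not among the genes of the deposited table and so were not analysed here.

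Of 15 other published YAP target genes, 3 were at least 2-fold lower, where 10.5% of tested genes were. At least 2-fold higher were 0, where 7.02% of tested genes were. The ratio was below 1 for 11 of the 15, against 51.3% of tested genes, and the median log2 fold change was -0.31. *Myof*, which encodes the membrane repair protein myoferlin, was at 227.6 in WT+AKI against 28.72 in TG+AKI, 7.92-fold lower (7.41 to 8.48). *F3*, tissue factor, the starter of blood clotting, was at 61.87 and 20.08, 3.08-fold lower (2.83 to 3.36). *Gadd45a*, a stress-response gene, was at 40.45 and 19.78, 2.05-fold lower (1.87 to 2.24). The other 12 were within 2-fold, so most published targets did not show the size of difference seen for *Cyr61* and *Ankrd1*. *Igfbp3*, a carrier of insulin-like growth factors, lay in the opposite direction at 275.1 and 432.4.

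Relatives of the target genes were mixed. Of the other CCN genes only *Wisp1* passed the filter, at 6.37 in WT+AKI against 2.99 in TG+AKI, 2.13-fold lower (1.69 to 2.71). Among the TAM genes besides *Axl*, *Pros1*, which encodes the ligand protein S, was at 83.07 and 25.03, 3.32-fold lower (3.08 to 3.58), while the ligand gene *Gas6* was at 422.4 and 409.8. *Ankrd23*, of the same family as *Ankrd1*, was at 4.74 and 5.28.

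**Figure D5:**
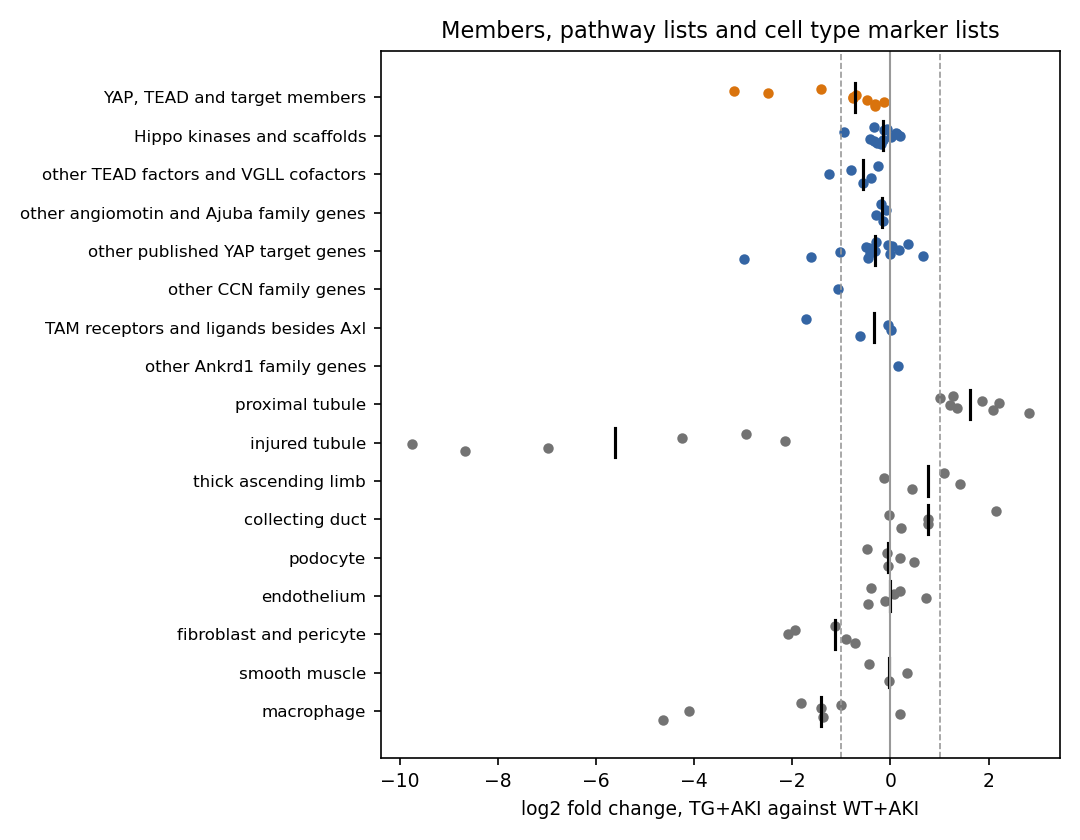
log2 fold change of TG+AKI against WT+AKI for each tested gene of the YAP and TEAD set (orange), the pathway lists (blue) and the cell type marker lists (grey), with a black bar at the median of each list with at least 3 tested genes, a solid line at 0 and dashed lines at 2-fold. The YAP and TEAD genes have a median of -0.73, beside -0.31 for other YAP targets, -5.62 for injured tubule markers and 1.62 for proximal tubule markers; T and B cell markers are not drawn, since none was tested.

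Markers of several kidney cell types differed between the libraries, in both directions. The counts of markers stand beside 10.5% of all tested genes at least 2-fold lower in TG+AKI and 7.02% at least 2-fold higher. All 6 injured tubule markers (*Havcr1*, *Lcn2*, *Krt20*, *Vcam1*, *Sox9* and *Clu*) were at least 2-fold lower in TG+AKI, and their summed value was 2770 in WT+AKI against 132.4 in TG+AKI. All 8 proximal tubule markers were at least 2-fold higher, with sums of 4974 and 16510. Of 5 fibroblast and pericyte markers 3 were at least 2-fold lower, with sums of 499.6 and 217.5, and of 7 macrophage markers 6 were, with sums of 173.4 and 74.8. By contrast, summed values were close between the libraries for endothelium (395.2 and 391.5), podocytes (422.9 and 453.8) and smooth muscle (70.81 and 71.14). In thick ascending limb 2 of 4 markers and in collecting duct 1 of 5 were at least 2-fold higher, with sums of 1895 and 3113 and of 313.3 and 450.9. T and B cell markers, none of which passed the filter, summed to 1.42 and 2.51. Every gene of the deposited table had reads in both libraries, so no marker taken from it could be at 0. The levels of the kidney markers fit the labelled tissue. The part of these cell type differences in the lower values of the 10 genes was not tested.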

How the data were processed

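The deposited table holds 1 normalized signal value per gene and library, which the authors made from read counts. Libraries were TruSeq Stranded mRNA. The methods name STAR (2.7.3a in the submitters' processing notes), HTSeq and DESeq2, and the notes add edgeR and mm10. The annotation and strand setting were not given in the sources used here. Values were whole multiples of 1 read (100% within 0.01 reads), so reads were recovered. edgeR TMM factors (1.10 for WT+AKI, 0.909 for TG+AKI) returned the deposited values.

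Genes whose value reached 1 in either library (42.4 reads in WT+AKI, 33.1 in TG+AKI) were compared by log2(value + 0.1), TG+AKI minus WT+AKI. Groups came from the sample labels. Ratios carry exact 95% Clopper-Pearson intervals, ratios of ratios are conditional odds ratios, and levels per kilobase carry exact Poisson intervals. With 1 library per group no test was run. Reads are not independent molecules, so intervals cover counting error only. Procedures were tested on simulated data.

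The 10 genes, the lists and the settings were chosen with earlier results of these data known. Beside the 10 genes and *Inmt*, the rule named up to 5 called genes per pathway list with the largest change, or the 2 with the highest values where none was called. *Lats1*, *Amotl1*, *Mertk*, *Tyro3*, *Gas6*, *Igfbp3* and the cell type markers stand outside it and were named after their values were seen. Alternatives were 2 pseudocounts, 2 filters, 3 scalings and 2 call rules. Gene positions and promoters are from RefSeq, and strands, transcript lengths, overlapping genes and shared words are from GENCODE M21, both GRCm38.p6. Of the gene IDs, 19780 were in the RefSeq table. Tools were Python 3.11.15, numpy 2.4.6, scipy 1.17.1, pandas 2.3.3, matplotlib 3.10.9, R 4.3.3, edgeR 4.0.16 and DESeq2 1.42.0.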

Additional observations from a re-analysis of the deposited data

How the results depend on the processing

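The log2 fold change of all 10 genes was below 0 under each of the 9 alternatives, and *Cyr61*, *Ankrd1* and *Axl* were at least 2-fold lower under each that kept a 2-fold rule. With both columns set to the same total 5 of the 10 were at least 2-fold lower (*Ajuba* and *Amotl2* added), where 2295 of 14866 tested genes were, the median of the 10 was -1.01 beside -0.30 over all tested genes, and 666 tested genes were higher. With the median ratio of genes that reached 100 in both libraries set to 1, the median of the 10 was -0.88. A 1.5-fold threshold gave 6 of the 10 (*Ctgf* added as well), with 2306 tested genes higher and 2872 lower, and a filter of 10 gave 625 higher and 784 lower, over fewer genes. The same-total and median-ratio scalings each moved 9 of the 10 by more than the counting interval, to -0.41 and -0.28 for *Tead1*, -0.59 and -0.46 for *Yap1* and -2.77 and -2.64 for *Cyr61*. *Ankrd1* was at -2.67 with a pseudocount of 1. Of 35 list medians 13 moved and 0 changed sign. Depth limits *Ankrd1* most, with 53 reads in TG+AKI. With 1 library per group, leaving out a library was not possible, and no difference between animals was measured.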

Other observations

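The promoter windows of the pathway lists were searched in the same way. The TEAD core stood in 2 of 10 windows of the other published YAP target genes, in 3 of 13 of the Hippo kinases and scaffolds, in 4 of 6 of the other TEAD factors and VGLL cofactors, in 1 of 3 of the other angiomotin and Ajuba family genes, in 2 of 3 of the other Ankrd1 family genes, in 0 of 4 of the TAM genes besides *Axl* and in 0 of 1 of the other CCN genes. Among windows of tested genes at least 2-fold lower in TG+AKI, 14.2% of 1504 held the TEAD core, against 12.6% of windows of all tested genes. The AP-1 core TGANTCA stood in 11.5% of those 1504 windows, against 5.53% of windows of all tested genes. Its 0 of 10 windows for the 8 genes of the set with an entry are too few to set beside these shares. These shares are descriptions of letters in fixed windows and were not tested.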
